A study of Schmidtea mediterranea with 9 samples.

Results

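The planarian transcripts SMED30003867 and SMED30015143 are both named *5htr*, for serotonin receptor, in the study of these libraries. They were taken by those identifiers, and are 2 of the 36036 transcripts counted. Both were among the 18416 transcripts with enough reads to be tested. The annotation of the ovary-enriched transcripts matches SMED30003867 to the serotonin receptor of the pond snail *Lymnaea stagnalis*. The sources used here give no protein match for SMED30015143. No basis for the name of SMED30015143 is stated there, and no data on the binding of serotonin were used here. The transcripts are 1789 and 1687 nucleotides long.

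Serotonin is made from tryptophan, which is first hydroxylated by a tryptophan hydroxylase and then decarboxylated by aromatic L-amino acid decarboxylase (AADC). Released serotonin acts on cell-surface receptors, most of which are G-protein-coupled receptors that raise or lower second messengers such as cyclic AMP. Different receptor types couple to different G proteins, so the same transmitter can have different effects on cells that carry different receptors. Serotonin acts in the nervous system of animals and also outside it, including in reproductive organs.

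All libraries came from wild-type animals of the sexual strain of *Schmidtea mediterranea*, a flatworm that carries ovaries and testes in the same body. Ovary, testis and surrounding non-gonadal tissue were cut by laser capture from stained sections 16 µm thick, with 3 libraries for each tissue. Each ovary library pooled captures of 14 worms, of which 10 were cut across and 4 sagittally, whereas each testis and non-gonadal library pooled 6 worms, of which 4 were cut across and 2 sagittally. No treatment, transgene or age was given in the labels, and nothing there ties a library to particular worms, so p-values measure the spread between these pools. In such bulk captures, fewer cells of a type and less RNA per cell cannot be told apart.

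Total counts per library ranged from 18611584 to 25730833. The capture labels were checked on marker transcripts. The oocyte transcript *lecg* had a level of 2917 ± 123 TPM (transcripts per 1000000; mean ± SD, n = 3) in ovary, against 98.8 ± 7.37 in testis and just 14.7 ± 11.9 in non-gonadal tissue. The female germ cell marker *zfs1* had 3869 counts in the ovary libraries, 96 in the non-gonadal libraries and 1 in the testis libraries. In testis, *sped-1*, a male germ cell marker, had 8083 ± 384 TPM, against 63.4 ± 24.4 in ovary and 25.04 ± 11.8 in non-gonadal tissue. Tests were edgeR quasi-likelihood tests on the counts with TMM scaling, and transcripts were called where they changed 2-fold or more and the p adjusted by Benjamini-Hochberg was 0.01 or less.

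SMED30003867 was an ovary transcript of low to moderate abundance. Its level was 6.93, 7.84 and 7.06 TPM in the ovary libraries, and 0.322, 0.277 and 0.277 TPM in the non-gonadal libraries. In the testis libraries it was 0.0484, 0 and 0.0219 TPM. The 3 tissues did not overlap, with every ovary library above every non-gonadal library and every non-gonadal library above every testis library. The ovary mean of 7.27 ± 0.490 TPM (SD, n = 3) lay above 72.0% of all transcripts in that tissue, whereas the non-gonadal mean of 0.292 ± 0.0260 TPM lay above 43.3%.

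The reads behind these levels were few outside the ovary. The ovary libraries held 261, 324 and 254 reads of SMED30003867, the non-gonadal libraries 12, 12 and 11, and the testis libraries 2, 0 and 1. A count of 0 in a single library allows up to 3 counts, so testis replicates 1 to 3 were not distinguishable from each other at this depth. In ovary the libraries were close, as the TMM-scaled CPM (counts per 1000000) had a coefficient of variation of 1.35%, below the 5.98% that counting error alone gives. In TPM the coefficient of variation of the same libraries was 6.74%, above that value. Intervals from counts cover counting error only, because PCR copies of a molecule were not marked by identifiers and are counted as separate reads.

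SMED30003867 was called in all 3 comparisons between tissues. In ovary against non-gonadal tissue it was higher by 4.00 on the log2 scale (SE 0.24, edgeR adjusted p = 1.43e-08). Of all transcripts tested, 18.3% were called higher in that comparison, and 37.1% were called in either direction. Without TMM scaling, with library size alone, the share called higher was 28.8%. The study had already listed this transcript as ovary-enriched from the same libraries, so this call is not independent of that list. Against testis, ovary was higher by 7.13 (SE 0.35, edgeR adjusted p = 6.04e-10), in a comparison where 31.6% of transcripts were called higher and 62.1% in either direction, and with library size alone 52.9% were called higher. Testis was lower than non-gonadal tissue by a fitted log2 change of -3.14 (SE 0.53, edgeR adjusted p = 0.000103), with 35.1% of transcripts called lower. In both of these tissues SMED30003867 lay below 1 CPM. Its TMM-scaled CPM was 0.536 to 0.626 in the non-gonadal libraries and 0 to 0.1245 in the testis libraries. It therefore reached the filter of at least 1 CPM in at least 3 libraries through ovary alone. The comparisons share libraries and are not independent of each other.

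Because SMED30003867 had 3 reads in testis, its fitted changes against testis depend on the small count that the model adds. The ratio of TMM-scaled counts gave the non-gonadal level as 9.53 times the testis level, with an exact 95% counting interval from 3.00 to 48.4. The ovary level was 153 times the testis level by the same measure (52.3 to 745.5), and 16.1 times the non-gonadal level (11.5 to 23.3). These sizes depended on the scaling, as the ovary level was 300.4 times the testis level with library totals and 310.2 times in mean TPM, and 21.5 and 24.9 times the non-gonadal level. Without testis replicate 1, which held 2 of the 3 reads, the fitted change between testis and non-gonadal tissue was -4.06, and without testis replicate 2, which held none, it was -2.59. The corresponding values of ovary against testis were 8.05 and 6.58. It was called in each of these fits.

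SMED30015143 was a testis transcript of high abundance. Its level was 52.5, 56.1 and 46.2 TPM in the testis libraries. It was 1.577, 1.13 and 0.913 TPM in the ovary libraries, and 1.42, 0.904 and 0.962 TPM in the non-gonadal libraries. Every testis library was far above every other library, while the ovary and non-gonadal libraries overlapped. The testis mean of 51.6 ± 5.05 TPM (SD, n = 3) lay above 91.7% of all transcripts in that tissue. The ovary mean of 1.21 ± 0.339 TPM lay above 55.6%, and the non-gonadal mean of 1.10 ± 0.284 TPM above 58.3%.

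In reads, the testis libraries held 2046, 2420 and 1984 counts of SMED30015143. The ovary libraries held 56, 44 and 31, and the non-gonadal libraries 50, 37 and 36. The transcript was therefore detected in all 9 libraries, unlike SMED30003867. Its spread in the non-gonadal and ovary libraries, 26.0% and 33.2% of the mean of TMM-scaled CPM, was above the 15.6% and 15.1% expected from counting alone. In the testis libraries the spread was smaller, at 10.9%, but also above the 2.16% expected from counting.

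**Figure D1:**
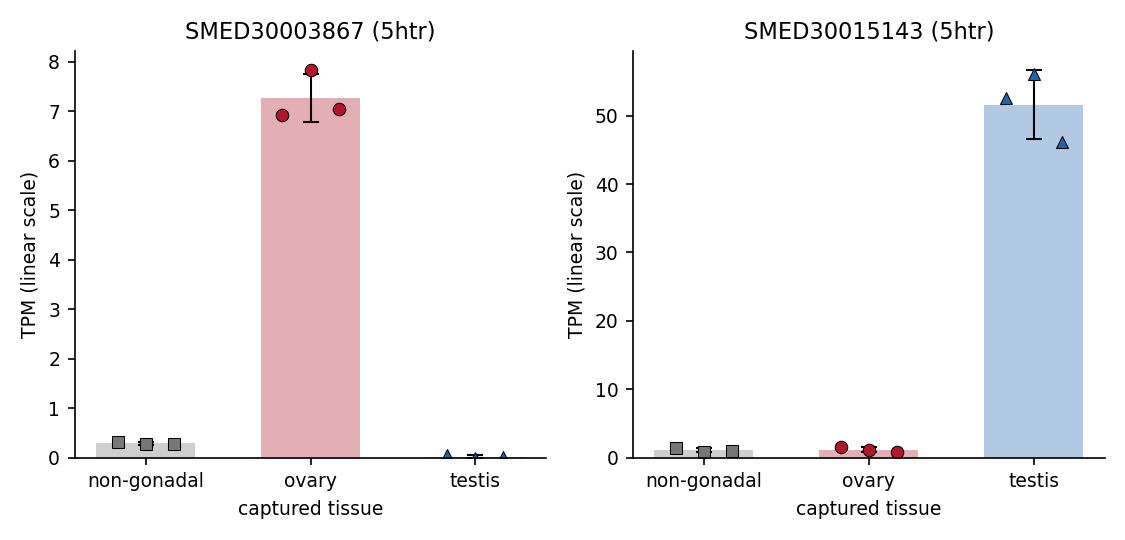
Level in TPM (vertical axes, linear, with different ranges) of SMED30003867 and SMED30015143 in the 3 captured tissues. Bars are means of 3 libraries, error bars are SD and each point is a library; SMED30003867 was highest in ovary (mean 7.27 TPM) and SMED30015143 in testis (mean 51.6 TPM).

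SMED30015143 was called in 2 of the 3 comparisons. Testis was higher than non-gonadal tissue by 6.00 on the log2 scale (SE 0.21, edgeR adjusted p = 1.77e-11), where 33.4% of transcripts were called higher and 68.5% in either direction. Ovary differed from testis by -6.48 (SE 0.21, edgeR adjusted p = 1.10e-11), and 30.4% of transcripts were called lower in that comparison. As ratios of TMM-scaled counts, testis was 64.2 times non-gonadal tissue (exact 95% counting interval 53.7 to 77.4) and 89.7 times ovary (75.5 to 107.5). The size of these ratios depended on the scaling, since testis was 45.8 times ovary with library totals and 42.8 times in mean TPM, and 43.8 and 47.1 times non-gonadal tissue.

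Ovary against non-gonadal tissue was the comparison in which SMED30015143 was not called. The fitted log2 change was -0.48 (SE 0.25, edgeR adjusted p = 0.11). The sign depended on the scaling, as the ratio of ovary to non-gonadal tissue was 0.716 with TMM scaling (counting interval 0.555 to 0.923), 0.957 with library totals (0.742 to 1.23) and 1.10 as the ratio of mean TPM. The order of its levels was thus testis first, with ovary and non-gonadal tissue not separated beyond the spread between libraries.

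**Figure D2:**
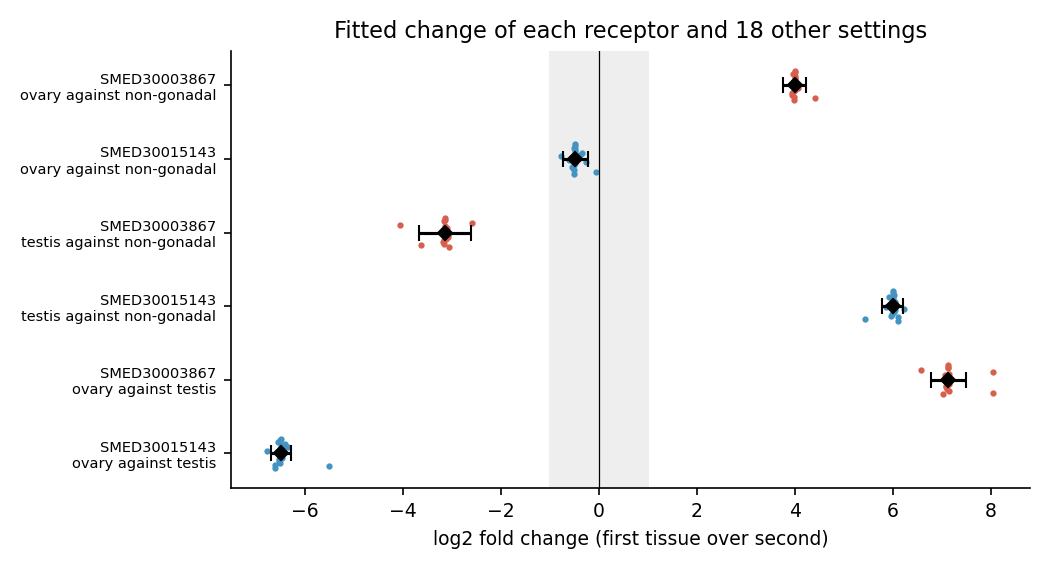
Log2 fold change (horizontal axis) of the receptors in the 3 comparisons of tissues. Diamonds are the edgeR values with bars of 1 SE, coloured dots are the 18 alternative settings, and the grey band marks changes below 2-fold; SMED30015143 in ovary against non-gonadal tissue (-0.48) was the single comparison inside the band.

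Of the sum of the 3 tissue means in TMM-scaled CPM, 93.6% of SMED30003867 was in ovary, 5.83% in non-gonadal tissue and 0.623% in testis. An ovary share as high or higher was found for 165 of the 18416 transcripts tested, or 0.896%. For SMED30015143, testis held 97.4%, non-gonadal tissue 1.53% and ovary 1.10%. A testis share as high was more frequent, in 1824 transcripts or 9.90% of those tested. The ovary receptor therefore had a distribution that few transcripts had, and the testis receptor one that many transcripts had.

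The ratio of the receptors within a library does not depend on how libraries are scaled. In TPM, which accounts for transcript length, SMED30003867 was 4.395, 6.94 and 7.73 times SMED30015143 in the ovary libraries. In the non-gonadal libraries the ratio ran the other way, at 0.226, 0.306 and 0.288. In testis replicates 1 and 3, SMED30015143 was 1085 and 2104 times SMED30003867, and in testis replicate 2 no read of SMED30003867 was counted beside 2420 of SMED30015143. The more abundant receptor was thus SMED30003867 in every ovary library and SMED30015143 in every other library.

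On the log2 scale of counts, with 0.5 added to each, the ratio of SMED30003867 to SMED30015143 was 2.70 ± 0.43 in ovary (SD, n = 3), -1.75 ± 0.23 in non-gonadal tissue and -10.76 ± 1.33 in testis. Transcript length cancels in the differences between tissues. Ovary exceeded non-gonadal tissue by 4.45 (SE 0.28) and testis by 13.46 (SE 0.80), and testis differed from non-gonadal tissue by -9.01 (SE 0.78). The tissues did not overlap in any pair. The exact two-sided permutation test gave p = 0.1 for each difference, the smallest value that 3 libraries against 3 can give, so this test cannot reach the usual threshold. The size of the testis ratio depends on the added count, and with TPM and 0.1 added the differences that involve testis were -7.14 from non-gonadal tissue and 11.2 from ovary.

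**Figure D3:**
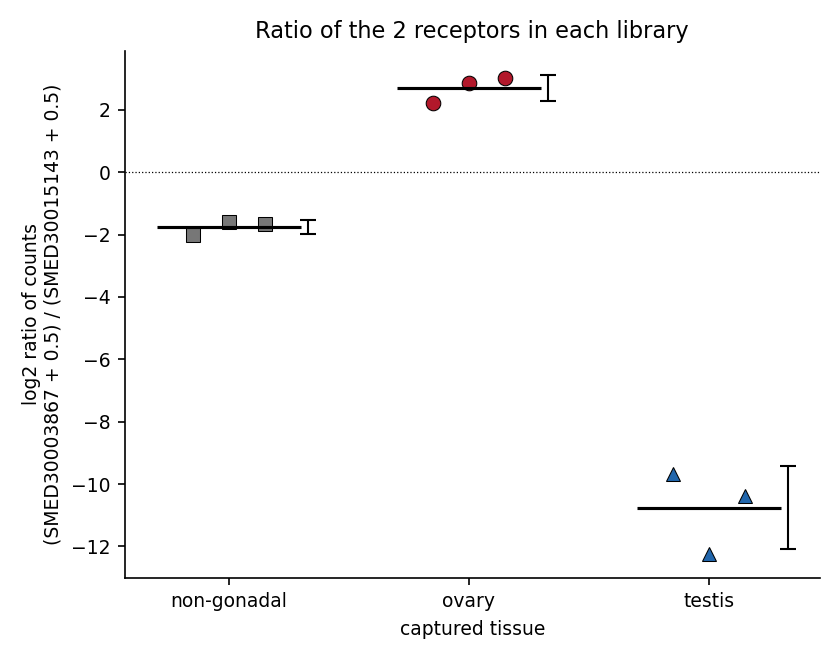
Log2 ratio of counts of SMED30003867 over SMED30015143, with 0.5 added to each count, in each library by captured tissue. Horizontal lines are means, bars beside them are SD (n = 3) and the dotted line marks equal counts; the ovary libraries lie above it at 2.21 to 3.01 and all other libraries below it.

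The summed level of the pair, which leaves out any other serotonin receptor, also differed between tissues. Summed mean TPM was 1.39 in non-gonadal tissue, 8.48 in ovary and 51.6 in testis. Nearly all of it was SMED30015143 in testis, and most of it was SMED30003867 in ovary.

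How reads with several matches were assigned is not stated in the sources used here, and the sequences of the pair were not analysed here, so reads shared between the receptors were not examined. The 3 reads of SMED30003867 in testis stood beside 6450 of SMED30015143.

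Transcripts of a neighbouring tissue can enter a capture, and the levels of tissue markers outside their own tissue were set beside those of the receptors. SMED30015143 had 1.55%, 0.965% and 0.861% of its mean testis level in the ovary libraries, in TMM-scaled CPM. The male germ cell markers *sped-1*, *C3H-zfn-1* and *elav2* had between 0.192% and 0.557% there. The median of the 100 most abundant testis transcripts was 0.494%, 0.255% and 0.457%. The share of SMED30015143 was thus above those of the 3 markers in every ovary library. The fourth testis marker, *bic-c*, had 1.33%, 1.05% and 1.95%, which overlaps SMED30015143.

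In the non-gonadal libraries, SMED30015143 had 2.04%, 1.29% and 1.38% of its testis level. The markers *sped-1*, *C3H-zfn-1* and *elav2* had 0.141% to 0.434% there, and *bic-c* 0.798% to 1.04%. In every non-gonadal library the share of SMED30015143 was thus above those of the 4 testis markers. Against *bic-c*, which had 16, 17 and 13 reads there, the counting intervals of the shares overlapped in each library. With the counts of each tissue summed, they did not overlap. Testis was 64.2 times non-gonadal tissue for SMED30015143 (53.7 to 77.4) and 107.5 times for *bic-c* (80.4 to 147.0). These intervals cover counting error only. None of these markers was at 0 in the ovary or non-gonadal libraries. The part of captured testis material in the low levels of SMED30015143 was not tested.

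SMED30003867 had 6.88%, 5.89% and 5.93% of its mean ovary level in the non-gonadal libraries. The oocyte marker *lecg* had 0.435%, 1.502% and 0.393% there, and *zfs1* had 2.08%, 5.88% and 2.65%. The transcript matched to the transcription factor KLF4, a marker of early germ cells, had 5.74%, 12.2% and 8.44%. The transcript matched to a Delta-like protein, a marker of ovarian somatic cells, had 14.8% to 15.8%. The study detected *klf4* and *zfs1* also in cells anterior to the ovary, and *klf4* in early male germ cells. It detected the Delta homolog *delta3* in the penis papilla as well. Whether the 2 matches are *klf4* and *delta3* was not examined here. The receptor lay above *lecg* in each non-gonadal library, below the Delta-like transcript, and among the values of the KLF4 match. It lay clearly above *zfs1* in replicate 1 only. In replicate 3 the counting intervals of the 2 shares overlapped, and in replicate 2 the difference was less than counting error. The markers of oocytes and female germ cells were highest in non-gonadal replicate 2. SMED30003867 had 12, 12 and 11 reads in non-gonadal replicates 1 to 3. With 95% counting limits of 6.2 to 21.0 for 12 reads, a rise of a few reads in replicate 2 could not be seen.

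In the testis libraries the order of the ovary markers was different. SMED30003867 had 1.37%, 0% and 0.630% of its ovary level, and *zfs1* had 0%, 0.138% and 0%. The oocyte marker *lecg* had 6.35% to 7.64% there, the KLF4 match 3.84% to 5.71% and the Delta-like match 0.609% to 1.35%. The part of captured ovary material in the levels of SMED30003867 outside the ovary was not tested.

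**Figure D4:**
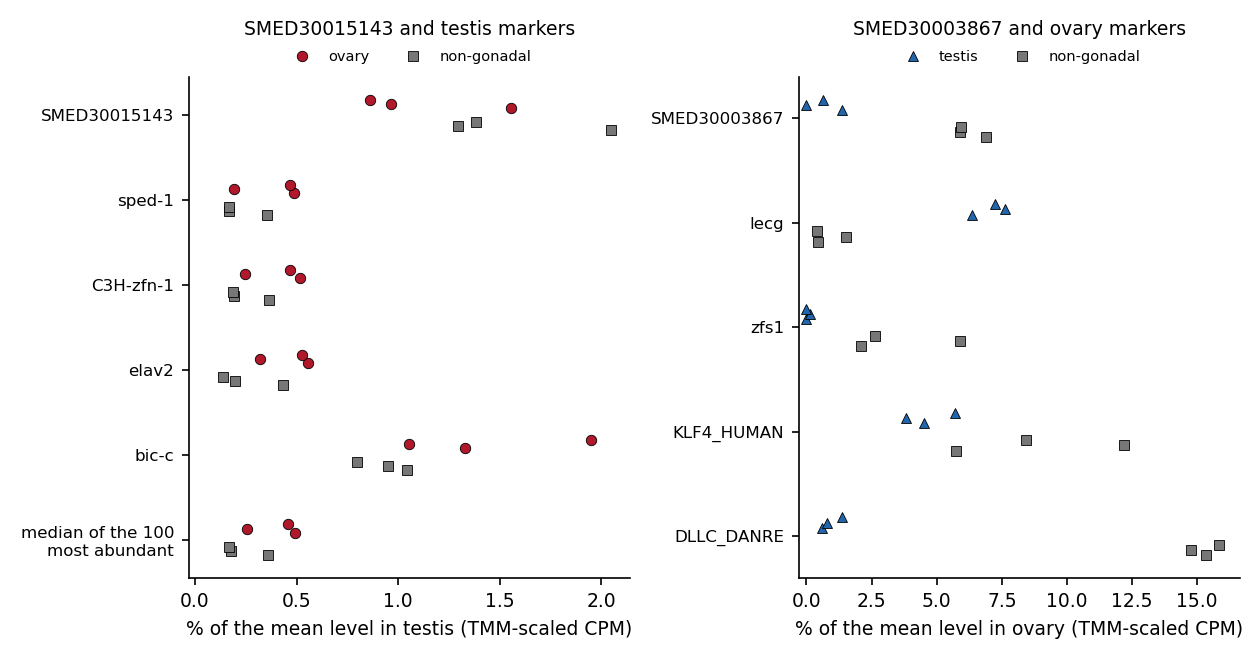
Level in other tissues as a percentage of the mean level in testis (left, for SMED30015143, 4 testis markers and the median of the 100 most abundant testis transcripts) or in ovary (right, for SMED30003867 and 4 ovary markers), in TMM-scaled CPM. Each point is a library. SMED30015143 in non-gonadal libraries (1.29% to 2.04%) lies to the right of the testis markers in the same libraries. Within each single library its counting interval overlaps that of *bic-c*. SMED30003867 in testis libraries (0% to 1.37%) lies to the left of *lecg*.

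Of the 3 enzymes of serotonin synthesis examined, none had the tissue pattern of SMED30015143, and *aadc*, which encodes AADC, had its highest level in the same tissue as SMED30003867. The *aadc* transcript SMED30020439 had 84.8, 103.1 and 90.4 TPM in ovary, 9.16, 10.5 and 10.5 TPM in non-gonadal tissue and 9.28, 6.70 and 8.89 TPM in testis. The ovary libraries stood clear of all others, while testis and non-gonadal libraries overlapped. It rose in ovary against non-gonadal tissue by a log2 change of 2.56 (SE 0.12, edgeR adjusted p = 2.31e-09) and did not pass the test in testis against non-gonadal tissue (0.15, SE 0.12, edgeR adjusted p = 0.273).

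The tryptophan hydroxylases were not higher in either gonad. For *tph1* (SMED30012020), the hydroxylase of serotonergic neurons in planarians, levels were 2.84, 2.93 and 2.16 TPM in non-gonadal tissue, 2.38, 1.63 and 1.71 TPM in ovary and 0.0488, 0.0882 and 0.111 TPM in testis. It fell in ovary by a log2 change of -1.09 (SE 0.23, edgeR adjusted p = 0.00104) and in testis by -4.52 (SE 0.35, edgeR adjusted p = 5.46e-08). The ovary call was lost without ovary replicate 2 (-0.96) and with library size alone (-0.68). The testis captures were thus lowest in *tph1* and SMED30003867 and highest in SMED30015143.

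The fly gene *henna* encodes a hydroxylase that acts outside neurons in *Drosophila*. Its homolog (SMED30004098) had 22.7 to 36.2 TPM in non-gonadal tissue, 19.4 to 26.6 TPM in ovary and 17.2 to 24.2 TPM in testis. The tissues thus overlapped in TPM. In TMM-scaled CPM, the scaling of the test, its ovary libraries had 29.7 to 38.9. They lay below its non-gonadal libraries, at 53.0 to 84.5, and its testis libraries, at 52.8 to 76.1. The change of the *henna* homolog in ovary against non-gonadal tissue was -1.02 (SE 0.18, edgeR adjusted p = 0.000296), at the edge of the 2-fold requirement. The call was lost without non-gonadal replicate 1 (-0.88), without non-gonadal replicate 2 (-0.97), without ovary replicate 3 (-0.91) and with library size alone (-0.60). In testis against non-gonadal tissue it did not pass the test (-0.20, SE 0.18, edgeR adjusted p = 0.316).

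Counted over the 3 enzymes, 1 rose and 2 fell in ovary against non-gonadal tissue, and 1 fell and 2 did not pass the test in testis against non-gonadal tissue. The background shares for ovary were 18.3% higher and 18.8% lower, and for testis 33.4% higher and 35.1% lower. The median log2 change of the enzymes was -1.02 in the ovary comparison and -0.20 in the testis comparison, where the median over all tested transcripts was 0.025 and -0.10.

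**Figure D5:**
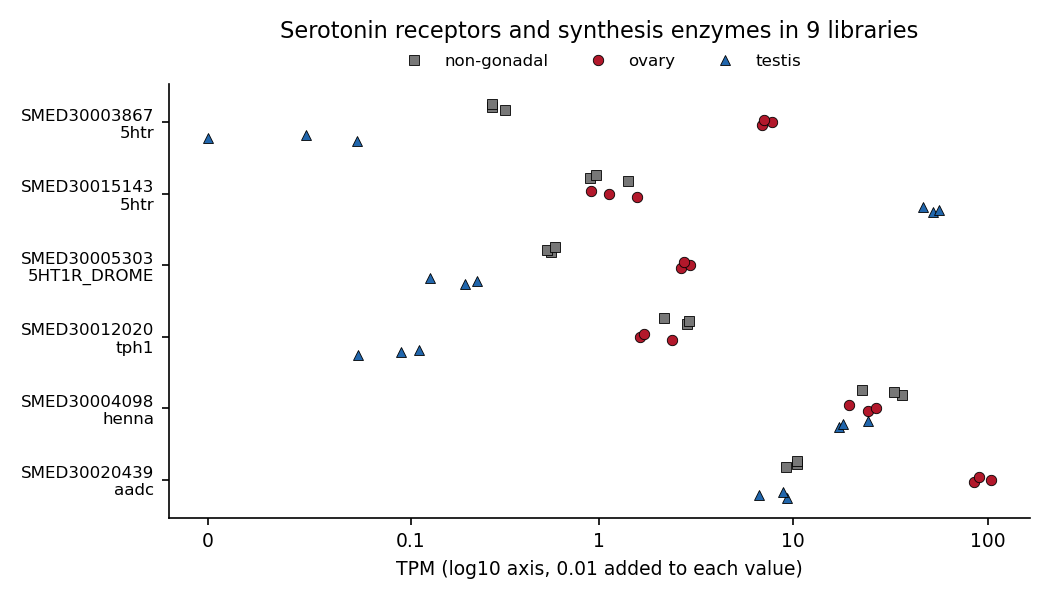
TPM per library (horizontal axis, log10 scale with 0.01 added to each value) of the receptor pair, the further serotonin receptor match SMED30005303 and 3 enzymes of serotonin synthesis. Points are libraries, coloured by captured tissue; SMED30015143 is the single transcript of the 6 whose testis libraries lie above all others.

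A further serotonin receptor, SMED30005303, is matched in the annotation of ovary-enriched transcripts to a *Drosophila* 5-hydroxytryptamine receptor. The study chose the transcripts of that annotation on these libraries, so its levels are given as a description. It had 2.64, 2.94 and 2.76 TPM in ovary, 0.565, 0.540 and 0.590 TPM in non-gonadal tissue and 0.198, 0.230 and 0.128 TPM in testis. Its tissue order was that of SMED30003867, ovary above non-gonadal tissue above testis, without overlap. Its ovary share of the summed tissue means was 68.7%, below the 93.6% of SMED30003867.

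The part of the annotation used here names 7 further transcripts as G-protein-coupled receptors, all of them chosen by the study as ovary-enriched on these libraries. The highest in ovary were the match to a muscarinic acetylcholine receptor (SMED30010657) at 23.1 ± 1.82 TPM (SD, n = 3), the match to a neurotensin receptor (SMED30007024) at 14.8 ± 2.33 TPM and the match to the *Drosophila* SIFamide receptor (SMED30006978) at 10.9 ± 1.63 TPM. SMED30003867 came next at 7.27 ± 0.490 TPM, and its libraries, at 6.93 to 7.84 TPM, did not overlap the 9.20 to 12.4 TPM of the SIFamide receptor match.

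The remaining 4, matches to the *Drosophila* sex peptide receptor (SMED30005622), a melatonin receptor (SMED30008791) and an adhesion receptor of the latrophilin type (SMED30009366) and a receptor fragment (SMED30001295), had ovary means of 0.9904 to 1.87 TPM. SMED30003867 had the highest ovary share of these receptors, at 93.6% against 63.8% to 91.3%. The next was the neurotensin receptor match at 91.3%. Its counting interval for ovary over non-gonadal tissue, 9.37 to 15.4, overlapped the 11.5 to 23.3 of SMED30003867, so counting error does not settle this rank. In testis, all 8 receptor transcripts other than the pair had means of 0.186 TPM or less, as their selection for the ovary favours, and receptors of testis-enriched transcripts were not examined here.

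The same annotation names 4 transcripts that act downstream of G-protein-coupled receptors, again chosen as ovary-enriched. They match the catalytic (SMED30008955) and regulatory (SMED30009728) subunits of protein kinase A, the kinase that cyclic AMP activates, the transcription factor CREB1 (SMED30006028), which that kinase phosphorylates, and a beta-arrestin (SMED30005314), which binds activated receptors. Their ovary means were 117 ± 12.6, 131 ± 22.03, 46.1 ± 7.77 and 8.01 ± 1.30 TPM in that order, and their testis means were 0.783 ± 0.336, 7.61 ± 1.16, 5.32 ± 0.768 and 0.122 ± 0.0359 TPM. Each of the 4 was lower in testis than in ovary, which its selection favours. Testis-enriched transcripts with annotation were not used here.

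The transcripts with the pattern most like each receptor were named by Pearson correlation of log2(TMM-scaled CPM + 1) over the 9 libraries. With 3 tissues that stand apart, this measure ranks mainly by the tissue means. For SMED30003867 the nearest were SMED30020508 (r = 0.999), SMED30005227 (r = 0.999) and SMED30001412 (r = 0.999). SMED30005227 matches a tubulin beta chain, with a mean of 41.2 TPM in ovary, 1.38 in non-gonadal tissue and 0.196 in testis. Among annotated ovary-enriched transcripts, the next was SMED30012296, matched to human GPSM2, a regulator of G-protein signalling, which had 66.1 TPM in ovary, 12.9 in non-gonadal tissue and 7.57 in testis.

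For SMED30015143 the nearest were SMED30002964, SMED30015994 and SMED30022337, each with r of 0.999 or more. The mean of SMED30002964 was 98.5 TPM in testis, as against 0.892 in ovary and 0.721 in non-gonadal tissue. SMED30015994 had 15.4 TPM in testis, and SMED30022337 had 58.2 TPM. Correlations of at least 0.99 were found with 1976 other tested transcripts for SMED30015143, or 10.7%, and with 130 for SMED30003867, or 0.706%. By this measure likeness to the testis receptor was thus common and likeness to the ovary receptor rare, the same order as the shares of transcripts given above. Correlation does not take in the size of a change, so a like pattern is not the same as a like tissue share.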

How the data were processed

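RNA from laser-captured ovary, testis and non-gonadal tissue of *S. mediterranea* was sequenced in 9 libraries. Trimmed single-end reads were mapped by the authors with CLC Genomics Workbench to an assembled transcriptome plus *zfs1*, and neither its version and settings nor its treatment of multiple matches is stated in the sources at hand. The authors deposited the count of reads per transcript without normalization. They also deposited RPKM, used here to recover transcript lengths, and TPM, used for levels. Their deposited CPM is a signal with an undescribed composition factor, and was used only for the filter of at least 1 in at least 3 libraries. Deposited columns of the authors' own fold changes and p-values were not used.

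Counts were tested with edgeR 4.0.16 (limma 3.58.1, R 4.3.3), with TMM scaling and 1 quasi-likelihood model of all 9 libraries. SE is the log2 change divided by the square root of F. Ratios of tissues carry exact binomial 95% counting intervals. Named transcripts were the receptor pair, serotonin synthesis enzymes, receptors and signalling transcripts annotated as ovary-enriched, tissue markers, and the 3 nearest in pattern to each receptor, overall and among 416 annotated transcripts. 1 of these transcripts is not reported here. Members and lists were chosen with earlier results of these data known. Tests were checked on simulated counts. Alternatives, including DESeq2 1.42.0, are given in the closing section.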

Additional observations from a re-analysis of the deposited data

How the results depend on the processing

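The 6 fitted changes of the receptors kept their direction and their side of the threshold under all 18 alternatives each, and the counts of called transcripts stayed within 1.5 times. Leaving out each library in turn, SMED30003867 ranged from 3.96 to 4.07 in ovary against non-gonadal tissue, from -4.06 to -2.59 in testis against non-gonadal tissue and from 6.58 to 8.05 in ovary against testis. SMED30015143 ranged from -0.77 to -0.26, from 5.87 to 6.22 and from -6.76 to -6.33 in the same comparisons. Called transcripts ranged from 6557 to 6900, from 12448 to 12629 and from 11093 to 11474. The log2 receptor ratio ranged from 4.29 to 4.70 for ovary minus non-gonadal tissue, from -9.55 to -8.27 for testis minus non-gonadal tissue and from 12.7 to 14.0 for ovary minus testis. With TPM and 0.1 added the last 2 were -7.14 and 11.2, since a larger added value weighs more on the 3 reads of SMED30003867 in testis.

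Library size alone, without TMM scaling, moved the median log2 change of all tested transcripts from 0.025 to 0.44 in ovary against non-gonadal tissue, from -0.10 to -0.65 in testis against non-gonadal tissue and from 0.22 to 1.19 in ovary against testis, and the share of calls that were higher from 49.3% to 69.0%, from 48.7% to 39.3% and from 51.0% to 69.9%. Relative to these medians, SMED30015143 in ovary against non-gonadal tissue was -0.51 under both scalings. In the same setting the change of *aadc* in testis against non-gonadal tissue turned to -0.40, and that of *henna* in ovary against testis, -0.82 with TMM scaling, turned to 0.14. The log2 ratio of mean levels of SMED30015143, ovary over non-gonadal tissue, was 0.14 in TPM and turned to -0.48 in TMM-scaled CPM. On the same pair of scales, its testis over non-gonadal ratio was 5.99 in TMM-scaled CPM and its ovary over testis ratio -6.47, and the ovary over non-gonadal ratio of SMED30003867 was 4.00, each beyond the spread between libraries from the TPM value.

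Deviations of libraries with the same replicate number correlated by 0.0168 to 0.227, not above 0.1 in every pair, so the numbers were not taken as pairing. Every ovary library nonetheless correlated best with the non-gonadal and the testis library of its own number. Every testis library likewise correlated best with the non-gonadal library of its own number. Whether libraries of the same number share worms or handling was not tested. With the replicate number as a block, called transcripts were 6743, 12578 and 11393 in the 3 comparisons, against 6830, 12618 and 11430 without it. The receptors changed by 4.00, -3.14 and 7.14 (SMED30003867) and by -0.49, 6.01 and -6.49 (SMED30015143) in that fit, with no call changed. Of the 69 fitted changes of the 23 listed transcripts other than the receptors, 17, of 14 transcripts, had a changed call or sign in at least 1 alternative. They belonged to synthesis enzymes, other receptors, signalling transcripts and markers, and the most affected, SMED30009366 in testis against non-gonadal tissue, lost its call in 8 of 18. A CPM from library totals in the filter was added after seeing the data and changed no receptor call. Depth limits SMED30003867 in testis.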
